A study of Mus musculus with 48 samples.

Results

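The proteasome is the protease that degrades ubiquitin-tagged proteins, and its subunit and assembly genes carry the mouse symbols Psma to Psmg. Members were chosen by name alone, as symbols made of Psm, a letter from a to g and a number, leaving out the 5 pseudogene names that end in -ps. The rule found 51 members among the 55487 genes of the count table. They are 19 core genes (Psma and Psmb), 21 genes of the regulatory particle (Psmc and Psmd) and 11 others (Psme, Psmf and Psmg). Psmc3ip, a meiotic recombination factor, and Psme3ip1, a binding partner of an activator, fit the name pattern but are not subunits, and Psme2b is a copy of Psme2. Of the 51, 50 passed the filter on low counts at each level, and Psmb11, the subunit of the thymus form, was not tested: it had 0 counts in the 24 RNA libraries and at most 4 footprint counts in any library.

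The core particle is a barrel of rings, in which outer alpha rings gate the entrance and inner beta rings hold the proteolytic sites of Psmb5, Psmb6 and Psmb7. A regulatory particle caps the barrel: its ATPases (Psmc genes) unfold the substrate, and its other subunits (Psmd genes) bind ubiquitin and remove it. Interferon-inducible Psmb8, Psmb9 and Psmb10 replace the catalytic subunits in the immunoproteasome of blood and immune cells, Psme genes encode alternative activators, Psmf1 encodes an inhibitor, and Psmg genes with Psmd5, Psmd9 and Psmd10 encode chaperones of assembly.

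The study edited ribosomal protein genes by CRISPR-Cas9 in Ba/F3, a murine line of early B-lineage origin that needs interleukin 3 to grow, and sequenced RNA and ribosome footprints from the same lysates. Unedited WT clones were compared with clones that lost 1 gene copy, named Rpl5+/-, Rpl11+/- and Rpl22+/- for the gene concerned, with clones labelled as lacking both copies of Rpl22 (Rpl22-/-), and with clones that carried a point mutation: R98S in Rpl10, P131S in Rps15 or H137Y in Rps15. The labels give R98S and H137Y on both alleles, and P131S on both alleles in the footprint labels but named once in the RNA labels. Each of the 8 genotypes had 3 clones, grown with 1 ng/ml interleukin 3 and 10% serum and exposed to 0.1 mg/ml cycloheximide for 1 min before lysis. All clones derive from 1 cell line, so p-values measure the spread between clones of that line.

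Library totals ran from 13029073 to 38258559 counts in RNA and from 15598994 to 72044439 in footprints, and the members held 0.601 to 0.722% of RNA counts and 1.05 to 1.2% of footprint counts. Levels are in CPM, the usual depth-scaled count, here on library sizes scaled by TMM. RNA of the deleted genes was lower in their own clones: Rpl5 was at 1534 to 1589 CPM in Rpl5+/- against 2283 to 2338 in WT, Rpl11 at 1008 to 1150 against 1665 to 1686, and Rpl22 at 664.4 to 712.4 in Rpl22+/- and 508.5 to 727.2 in the clones labelled Rpl22-/- against 933.3 to 967.4. Rpl22 footprints ran from 274.1 to 1544 CPM in the clones labelled Rpl22-/-, whose highest clone lay within the 1429 to 1596 of Rpl22+/- and below the 2350 to 2786 of WT. A level cannot check a point mutation. Interleukin 3 receptor genes were expressed (Il3ra at 25.6 to 35.1 CPM, Csf2rb at 449.5 to 1720), as was Ptprc, while the pro-B genes Igll1 and Vpreb1 were at or near 0 (at most 0.0756 and 0.301 CPM), Kit was at 0 in the 24 RNA libraries, and the erythroid genes Gata1 (37.6 to 69.5) and Hba-a1 (9.74 to 227.9) were present. Because cultures were sequenced in bulk, fewer cells with a transcript and less of it per cell cannot be told apart.

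Proteasome genes are known to be induced together by Nfe2l1, which binds antioxidant response elements in their promoters. RefSeq promoter windows of build GRCm38.p6, from 250 bases before to 50 after the start, were matched by symbol for 43 of the 51 members and searched on both strands for the core of that element, TGACNNNGC, and for CCAAT. The response element core was found in 6 of the 43 windows (14%), the same share as in the 27025 genes with a window (14%), with 2 of 15 core and 3 of 18 regulatory genes. CCAAT was found in 16 of 43 (37.2%) against 41.1% of all genes, with 8 of 15 core genes (53.3%). The sequences below are the 250 bases before the start of Psmb5 and Psmc6, shown because Psmb5 had the largest rise in footprints among the members called and Psmc6 the largest fall in RNA, and a 29-base window of Psmd9, with the response element core in capitals, 5′ to 3′ on the strand of the gene. The Psmb5 window is chr14:54617996-54618245 (minus strand), that of Psmc6 is chr14:45329574-45329823 (plus strand), and that of Psmd9 is chr5:123228149-123228177 (plus strand).
Psmb5: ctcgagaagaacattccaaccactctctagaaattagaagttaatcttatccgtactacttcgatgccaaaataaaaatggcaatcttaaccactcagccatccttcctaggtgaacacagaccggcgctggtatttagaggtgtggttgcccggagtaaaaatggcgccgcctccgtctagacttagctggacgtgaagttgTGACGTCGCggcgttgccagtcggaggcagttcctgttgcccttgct
Psmc6: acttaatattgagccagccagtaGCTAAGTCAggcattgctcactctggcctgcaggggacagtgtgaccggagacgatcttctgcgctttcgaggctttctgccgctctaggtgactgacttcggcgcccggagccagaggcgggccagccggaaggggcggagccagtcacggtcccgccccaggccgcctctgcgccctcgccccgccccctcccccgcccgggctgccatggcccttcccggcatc
Psmd9: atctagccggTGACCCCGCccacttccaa
In these sequences the match starts 47 bases before the start in Psmb5 and 31 in Psmd9, both on the strand of the gene, and 227 before the start on the opposite strand in Psmc6. Neither of the 250-base sequences holds CCAAT (0 matches). These are matches of letters, and no binding was measured.

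Rps15 P131S was the genotype in which most members moved. Its RNA was higher for 26 of 50 members, against 23.7% of all 12814 genes tested, and lower for 1, against 23.4%. Rps15 H137Y had 9 members higher (21% of all genes were) and 12 lower (20%), close to those shares. Rpl10 R98S had 12 higher (6.82% of all genes). Ribosome footprints were higher for 17 members in P131S (8.42% of 16217 genes), for 10 in H137Y (5.22%), with 2 lower (6.44%), and for 5 in Rpl10 R98S (0.814%). The heat map of changes shows these 3 genotypes as the columns with most marks. A call throughout is an adjusted p under 0.05 from edgeR's quasi-likelihood test with Benjamini-Hochberg adjustment over all genes tested, and values after a log2 change are its standard error (SE). The shares of all genes are those of edgeR. Where calls by DESeq2 are given as an alternative, the share of all genes that it called is not given here. Members are measured with less error than most genes, with a median SE of 0.07 against 0.12 for all genes in RNA, and in the P131S footprint comparison 0.12 against 0.32. This bears on any reading of a count against the share of all genes. Groups of 3 clones can be apart without a call. In RNA 14 of 50 members did not overlap with WT in Rpl5+/- and 16 in Rpl22-/-, where 0 were called. In P131S 33 did not in RNA and 29 in footprints. The share of all genes is not given here, so a lack of overlap below describes the values and adds no support to a call.

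**Figure D1:**
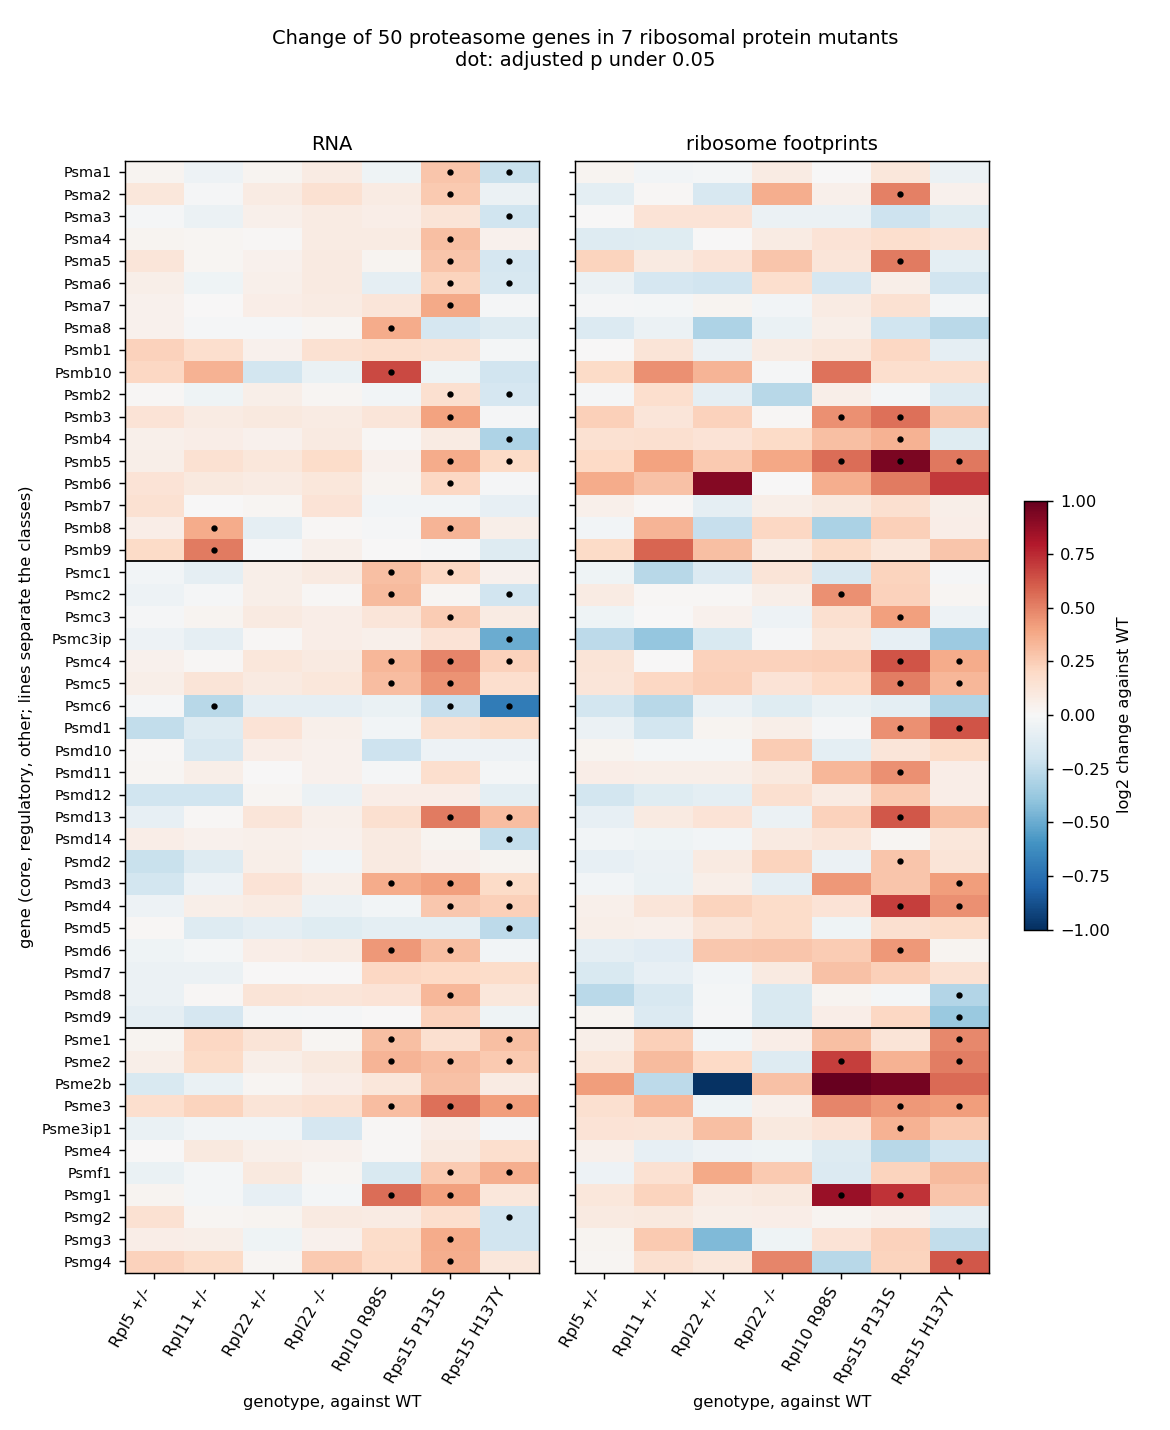
Log2 change of each of the 50 tested members against WT (color, from -1 to 1) in RNA (left) and ribosome footprints (right), 1 row per gene in the order core, regulatory and other, 1 column per mutant genotype, 3 clones each; dots mark adjusted p under 0.05. The P131S columns hold 27 dots in RNA and 17 in footprints, the H137Y columns 21 and 12, and the Rpl5+/- and Rpl22 columns none.

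In P131S clones, RNA of named genes of both particles rose. Among core genes 11 of 18 rose, with a median log2 change of 0.22, among regulatory genes 9 of 21 with a median of 0.20, and among the others 6 of 11 with a median of 0.29, beside a median of -0.01 over all genes. In the alpha ring Psma1, Psma2, Psma4, Psma5, Psma6 and Psma7 rose, and in the beta ring Psmb2, Psmb3, Psmb5, Psmb6 and the inducible Psmb8. The regulatory genes that rose were the ATPases Psmc1, Psmc3, Psmc4 and Psmc5 and the non-ATPase subunits Psmd3, Psmd4, Psmd6, Psmd8 and Psmd13. The activators Psme2 and Psme3, the inhibitor Psmf1 and the alpha-ring chaperones Psmg1, Psmg3 and Psmg4 completed the list, and the ATPase gene Psmc6 fell.

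Psme3 (chr11:101316213-101323537), whose product is a nuclear activator of the core, was at 262.0, 265.6 and 358.9 CPM in P131S clones 24, 63 and 20 and at 191.1, 207.4 and 208.7 in WT clones 3, 2 and 1. The groups did not overlap and clone 20 stood highest (log2 change 0.55, SE 0.09, adjusted p = 5.59e-05). Psmd13, a lid subunit, was at 119.6, 121.9 and 138.4 CPM against 85.9, 92.9 and 86.1 (0.52, SE 0.09, adjusted p = 6.59e-05). The ATPase gene Psmc4 (chr7:28041702-28050092) was at 113.9, 111.4 and 126.5 CPM against 76.6, 87.6 and 87.1 (0.49, SE 0.07, adjusted p = 1.71e-05). In these 3 genes every P131S clone was above every WT clone. Psmc5, another ATPase, was at 126.0, 120.8 and 162.5 CPM against 97.7, 101.6 and 99.5 (0.45, SE 0.09, adjusted p = 0.000313). The chaperone Psmg1 was at 46.3, 44.9 and 57.5 against 36.0, 39.0 and 37.2 (0.41, SE 0.09, adjusted p = 0.00068), and the lid gene Psmd3 at 183.0, 170.2 and 197.4 against 131.7, 142.7 and 140.7 (0.41, SE 0.07, adjusted p = 6.31e-05). Clone 20 was again the highest in each. The remaining 20 rises ran from 0.16 in Psmb2 to 0.40 in Psmb3.

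Clone 20 weighed on the size of the P131S result. The median member stood 0.31 (log2) above the WT mean in clone 20, 0.20 in clone 24 and 0.12 in clone 63, with 45, 42 and 37 of 50 members above it. Rps15 RNA itself was at 1935 CPM in clone 20, 906.7 in clone 24 and 1825 in clone 63, against 1433 to 1455 in WT. In H137Y it was at 1829 in clone 16, 817.4 in clone 6 and 874.7 in clone 2, and its part in the members' levels was not tested. Without clone 20 the calls of Psma2, Psmb2, Psmb6, Psmc1, Psmc3, Psmd6 and Psmg4 were lost. Psmb2 and Psmc6 were lost without clone 24, Psmc6 without clone 63, Psma2, Psmb2, Psmb6 and Psmc1 without WT clone 1, and Psma2, Psmb2 and Psmc6 without WT clone 3. The fall of Psmc6 rested on overlapping values, 152.2, 144.9 and 178.9 CPM in P131S against 194.2, 188.4 and 176.4 in WT (-0.23, SE 0.08, adjusted p = 0.0158). Of the 27 calls 19 were made under every alternative run.

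Footprints in P131S rose for the active site subunit Psmb5, for the ubiquitin receptor Psmd4 and for 15 more members, and fell for none of the 50 by edgeR. By class, 5 of 18 core genes (Psma2, Psma5, Psmb3, Psmb4, Psmb5), 9 of 21 regulatory genes (Psmc3, Psmc4, Psmc5, Psmd1, Psmd2, Psmd4, Psmd6, Psmd11, Psmd13) and 3 of 11 others (Psme3, Psme3ip1, Psmg1) passed the test. Medians were 0.17, 0.26 and 0.23, and -0.04 over all genes. The rise of Psma5 turned to -0.16 when reads of its pseudogene copy were added. Psmb5 (chr14:54614120-54617995), the chymotrypsin-like subunit, was at 143.6, 143.9 and 178.6 footprint CPM in clones 24, 63 and 20 against 78.3, 84.3 and 81.0 in WT. That is the largest rise among the called members (0.94, SE 0.11, adjusted p = 3.05e-05), and the remaining 18 libraries outside P131S and WT lay between 85.6 and 132.3. Psmg1 was at 79.0, 74.2 and 111.1 against 53.1, 56.0 and 51.0 (0.72, SE 0.14, adjusted p = 0.00113). Psmd4 (chr3:95032688-95042614) was at 371.2, 358.5 and 388.0 against 229.0, 239.2 and 226.0 (0.69, SE 0.10, adjusted p = 0.000195). Neither gene's groups overlapped.

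Psmc4 footprints in P131S were at 301.3, 295.9 and 376.2 CPM against 205.5, 202.4 and 222.6 in WT (0.63, SE 0.10, adjusted p = 0.000263). Those of Psmd13 were at 200, 220.7 and 240.3 against 134.1, 144.0 and 153.0 (0.62, SE 0.13, adjusted p = 0.00212), and those of the beta-ring gene Psmb3 at 558.4, 582.2 and 690.8 against 460.7, 400.8 and 393.0 (0.55, SE 0.09, adjusted p = 0.000397). The 3 genes had no overlap between groups. Of these 17 members 12 rose in RNA as well: Psma2, Psma5, Psmb3, Psmb5, Psmc3, Psmc4, Psmc5, Psmd4, Psmd6, Psmd13, Psme3 and Psmg1. Of these 12, the footprint rise of Psma5 turned to -0.16 with its copy added. The share of all genes that rose at both levels is not given here. Leaving out clone 20 reduced the 17 calls to 10, with Psma2, Psma5, Psmb4, Psmd2, Psmd6, Psme3 and Psme3ip1 lost. Further losses were Psma2, Psmb4, Psmd2 and Psmd6 without clone 63, Psma2, Psmb4, Psmd6 and Psme3ip1 without WT clone 1, Psme3 and Psme3ip1 without WT clone 2, and Psma2, Psma5, Psmd2, Psmd6, Psme3 and Psme3ip1 without WT clone 3.

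Rps15 H137Y gave another pattern in RNA. Of the core genes 6 of 18 fell (Psma1, Psma3, Psma5, Psma6, Psmb2, Psmb4), beside 20% of all genes, and 1 rose (Psmb5), with 3 of 18 above 0 and a median of -0.10 beside 0.01 over all genes. Regulatory genes went both ways, with Psmc4, Psmd3, Psmd4 and Psmd13 higher and Psmc2, Psmc6, Psmc3ip, Psmd5 and Psmd14 lower (median 0.03). Among the others the activators Psme1, Psme2 and Psme3 and the inhibitor Psmf1 rose and the chaperone Psmg2 fell (median 0.11). Psmc6 (chr14:45329823-45349074), an ATPase of the base, had the largest RNA change of any member: 111.9, 117.2 and 114.8 CPM in clones 16, 6 and 2 against 194.2, 188.4 and 176.4 in WT clones 3, 2 and 1. H137Y clones were the lowest 3 of the 24 libraries (-0.70, SE 0.08, adjusted p = 6.08e-07).

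Psmc3ip was at 13.3, 12.5 and 14 CPM in H137Y against 18.2, 20.4 and 17.8 in WT (-0.50, SE 0.12, adjusted p = 0.00265). Psme3 was at 267.3, 279.7 and 264.4 against 191.1, 207.4 and 208.7 (0.42, SE 0.09, adjusted p = 0.000915), and Psmf1 at 59.9, 59.6 and 57.7 against 44.3, 48 and 45.5 (0.36, SE 0.06, adjusted p = 6.09e-05). None of these 3 had overlapping groups. Psmd13 was at 99.3, 130.4 and 98.6 against 85.9, 92.9 and 86.1 (0.31, SE 0.09, adjusted p = 0.00737), and clone 6 stood apart. Psmb4, a beta-ring subunit, was at 221.3, 188.6 and 222.3 against 263.4, 263.5 and 257.4, with no overlap (-0.31, SE 0.06, adjusted p = 0.000492). Of the 21 calls 11 were made under every alternative run: Psma1, Psmb4, Psmc3ip, Psmc6, Psmd4, Psmd5, Psmd14, Psme1, Psme2, Psme3 and Psmf1. The call of Psmd13 was lost without clone 6 and that of Psmc4 without WT clone 3. Psma3, Psma5, Psma6, Psmb2, Psmb5, Psmc2, Psmd3 and Psmg2 were each lost without 1 or more of H137Y clones 16, 2 and 6 and WT clones 1, 2 and 3. Without WT clone 3 the count of calls went from 21 to 12.

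At the footprint level H137Y clones had Psmb5, the ATPases Psmc4 and Psmc5, the base and lid genes Psmd1, Psmd3 and Psmd4, the activators Psme1, Psme2 and Psme3 and the chaperone Psmg4 higher, and the base chaperone Psmd9 and the lid gene Psmd8 lower. Medians were 0.01 for core genes, 0.11 for regulatory genes and 0.32 for the others, with 0.00 over all genes. Psmd1, a scaffold of the base, was at 460.3, 467.8 and 559.5 CPM against 293.5, 346.7 and 317.8 (0.63, SE 0.11, adjusted p = 0.000719). Psmb5 was at 132.3, 104.1 and 115.5 against 78.3, 84.3 and 81.0 (0.53, SE 0.11, adjusted p = 0.00421), and Psmd4 at 364.3, 288.7 and 301.4 against 229.0, 239.2 and 226.0 (0.46, SE 0.10, adjusted p = 0.00588). For these 3 the groups were apart, and they are the calls made under every alternative run. Psmg4 was at 42.3, 31.9 and 50.2 against 24.4, 26.6 and 30.2 (0.62, SE 0.18, adjusted p = 0.0336). Psme2 was at 121.1, 119.8 and 122.5 against 93.1, 77.4 and 85.5 (0.51, SE 0.15, adjusted p = 0.033), and Psme1 at 650.3, 495.7 and 727.6 against 459.5, 427.0 and 453.6 (0.48, SE 0.15, adjusted p = 0.04).

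The other H137Y footprint calls leaned on individual clones. Without clone 2 the 12 calls became 4, and Psmc5, Psmd3, Psmd8, Psmd9, Psme1, Psme2, Psme3 and Psmg4 were lost. Without clone 16 the losses were Psmc4, Psmc5, Psmd9, Psme1, Psme2, Psme3 and Psmg4, and without clone 6 they were Psmd8, Psmd9 and Psme2. Each WT clone also carried 7 or 8 of these calls, and Psmd9 (36.3 CPM on average against 47.0) was lost without any 1 of the 6 clones, with DESeq2 size factors and with limma voom. In both levels of H137Y, 7 members rose together: Psmb5, Psmc4, Psmd3, Psmd4, Psme1, Psme2 and Psme3. How many of all genes did so is not given here. Psmc6 footprints were at 335.5, 343.3 and 388.4 CPM against 458.9, 431.2 and 426.0, below WT in each clone, but did not pass the test (-0.30, SE 0.10, adjusted p = 0.0645).

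The mutations P131S and H137Y lie in the same protein, and a direct comparison asked where their clones differ. P131S RNA was higher than H137Y RNA for 25 of 50 members (12.6% of all genes were higher) and lower for none by edgeR, with a median of 0.22 against -0.02 over all genes. The 12 core genes among them were Psma1 to Psma7, Psmb2, Psmb3, Psmb4, Psmb6 and Psmb8. The 10 regulatory genes were Psmc2, Psmc3ip, Psmc4, Psmc5, Psmc6, Psmd3, Psmd5, Psmd6, Psmd8 and Psmd14, and the 3 others were Psmg1, Psmg2 and Psmg3. Against WT, which both comparisons share, 4 alpha- and beta-ring genes had risen in P131S and fallen in H137Y: Psma1, Psma5, Psma6 and Psmb2. Of the 27 members called in P131S and the 21 in H137Y, 9 had the same direction in both: Psmb5, Psmc4, Psmd3, Psmd4, Psmd13, Psme2, Psme3 and Psmf1 were higher in both, and Psmc6 lower in both. The shares of all genes called in both mutants, in the same or in opposite directions, are not given here. The counts of 4 and 9 thus have no background to be read against.

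Psma1 (chr7:114264550-114276116) was at 218.5, 218.2 and 253.2 CPM in P131S clones 24, 63 and 20, at 159.8, 164.0 and 166.3 in H137Y clones 16, 6 and 2, and at 182.9, 196.2 and 189.8 in WT. WT clones lay between the mutants with no overlap on either side (difference 0.49, SE 0.06, adjusted p = 1.13e-05). Psma5 (chr3:108256926-108279952) was at 183.5, 183.3 and 207.6 against 141.0, 131.9 and 146.4, with WT at 152.8 to 164.9 (0.45, SE 0.06, adjusted p = 3.84e-05). Psma6 (chr12:55384222-55418459) was at 195.8, 195.3 and 212.4 against 139.4, 167.3 and 158.1 (0.38, SE 0.06, adjusted p = 0.000133), and 1 H137Y clone reached into the WT range of 166.1 to 177.6. Psmb2 (chr4:126677637-126709715) was at 142.0, 129.5 and 133.5 against 109.1, 100.5 and 112.1, with WT at 117.5 to 124.5 (0.33, SE 0.06, adjusted p = 0.000528). These genes were picked for calls in opposite directions against WT, so a called difference was nearly fixed in advance and adds no support. The 4 differences between the mutants were called under every alternative run. Of the 4 falls from WT in H137Y, that of Psma1 was too, and those of Psma5, Psma6 and Psmb2 were lost without WT clone 2, without WT clone 3 and without 1 or more H137Y clones.

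Other large RNA differences between the mutants were those of Psmc3ip (20.0, 17.5 and 24.8 CPM in P131S against 13.3, 12.5 and 14 in H137Y; 0.65, SE 0.12, adjusted p = 0.000744), Psmg3 (35.2, 32.0 and 43.4 against 24.0, 25.2 and 26.3; 0.55, SE 0.09, adjusted p = 0.000234) and Psmc6 (152.2, 144.9 and 178.9 against 111.9, 117.2 and 114.8; 0.47, SE 0.08, adjusted p = 0.000161). Groups were apart in each. Without P131S clone 20 the 25 calls fell to 14, with Psma2, Psma4, Psmb6, Psmb8, Psmc2, Psmc4, Psmc5, Psmd3, Psmd5, Psmd6 and Psmg1 lost. Without H137Y clone 16 the calls of Psma4, Psmb6, Psmb8, Psmc2, Psmc5, Psmd3 and Psmd5 were lost, and without clone 2 those of Psma4, Psmb8, Psmc2, Psmd3 and Psmd5. Psmc5 was lost without H137Y clone 6, Psmb8 without P131S clone 24, and Psmb8 and Psmd5 without P131S clone 63.

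**Figure D2:**
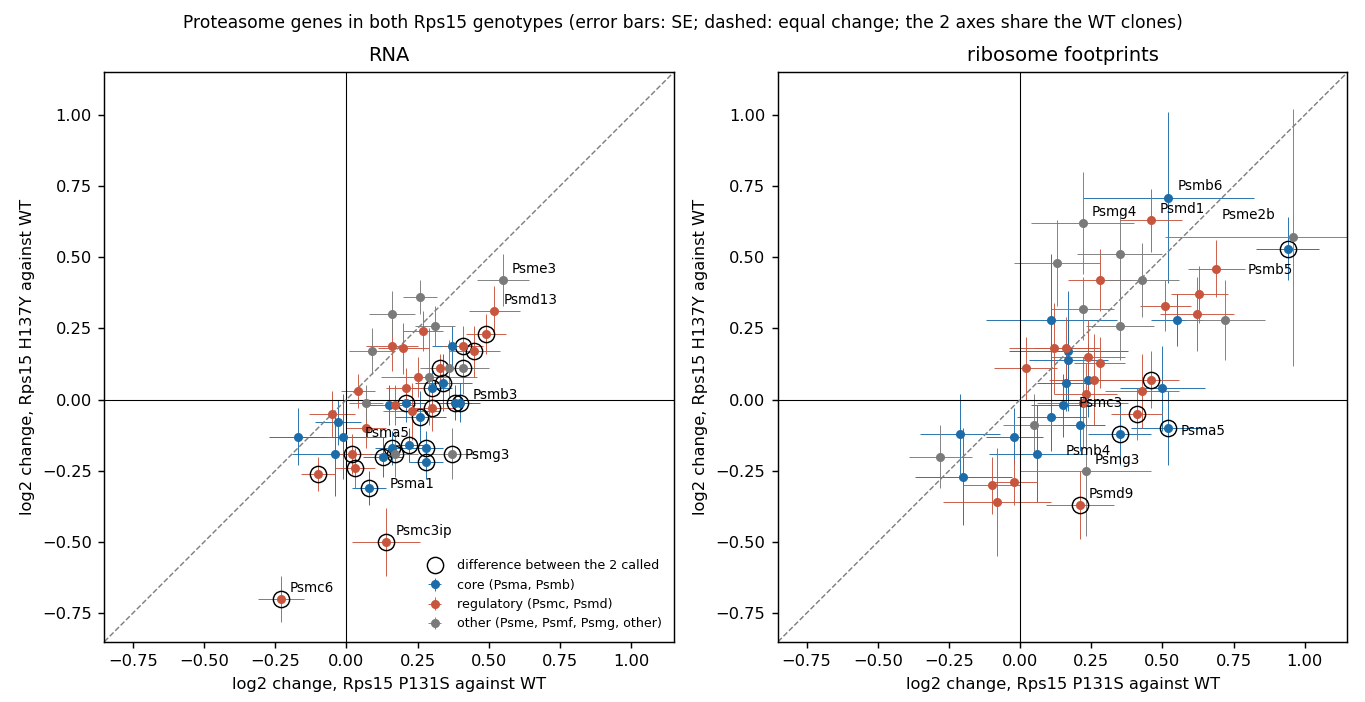
Log2 change against WT in Rps15 P131S (horizontal axis) and Rps15 H137Y (vertical axis) for the 50 members in RNA (left) and footprints (right), with standard errors as bars; rings mark members whose P131S and H137Y clones differed (25 in RNA, 6 in footprints). In RNA 14 of the 18 core genes were above 0 in P131S and 3 in H137Y, and Psmc6 sits lowest at -0.23 and -0.70; both axes use the same WT clones.

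In footprints 6 of 50 members were higher in P131S than in H137Y (2.23% of all genes were) and none lower by edgeR, with a median of 0.17. DESeq2 called 11, a count that cannot be set against the 2.23%, which is edgeR's. Psma5 led, at 344.9, 365.6 and 381.0 CPM in P131S against 266.6, 218.0 and 223.6 in H137Y (0.62, SE 0.13, adjusted p = 0.00972), a value that depends on reads shared with a pseudogene, as described further on. Psmd9 was at 57.7, 49.9 and 56.0 against 35.6, 36.9 and 36.5 (0.59, SE 0.12, adjusted p = 0.00716), and Psmc3 at 271.1, 285.9 and 324.4 against 233.0, 204.4 and 202.9 (0.46, SE 0.09, adjusted p = 0.00459). Psmd9 and Psmc3 did not overlap and were called under every alternative run. Psmb4 was at 278.8, 337.0 and 336.9 against 239.6, 213.0 and 231.3 (0.48, SE 0.11, adjusted p = 0.013), Psmb5 at 143.6, 143.9 and 178.6 against 132.3, 104.1 and 115.5 (0.41, SE 0.11, adjusted p = 0.0449), and Psmd11, a lid subunit, at 199.0, 213.4 and 241.0 against 180.5, 146.9 and 168.0 (0.40, SE 0.10, adjusted p = 0.0338). The call of Psmb4 was lost without P131S clone 20 or H137Y clone 6, and those of Psmb5 and Psmd11 without either of these or H137Y clone 2 or P131S clone 63. Without H137Y clone 6 the 6 calls became 3.

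The ratio of footprints to RNA, called translational efficiency here, separates a change in ribosome occupancy from a change in RNA. Its test is the interaction of assay and genotype over the 48 libraries. In P131S 1 member was higher (0.881% of 16568 genes were) and 1 lower (2.26%): Psmb5 and Psmd8. In H137Y 1 was higher (0.61%) and 1 lower (2.15%): Psmd5 and, again, Psmd8. Psmb5 had log2 ratios of 0.12, 0.21 and 0.29 in P131S clones 24, 63 and 20 and of -0.35, -0.37 and -0.33 in WT, so that each P131S clone had relatively more footprints than RNA and each WT clone fewer. The change was 0.54 (SE 0.13, adjusted p = 0.0141), and leaving out any 1 of the 6 clones kept the call, which among the 12 alternatives run was lost only when genes with low counts were kept in the test. Psmb5 ratios in H137Y clones were 0.18, -0.20 and -0.03, and in Rpl10 R98S clones A30, A29 and A34 they were 0.06, 0.24 and 0.21, all above the WT clones. Those of Rpl11+/- clones 406, 414 and 22, at -0.11, -0.12 and -0.09, were above WT too. In Rpl5+/-, Rpl22+/- and Rpl22-/- clones they ran from -0.37 to -0.01 and overlapped WT. The WT clones thus lay at the low end of all clones, and a higher ratio than WT was not confined to Rps15 and Rpl10 mutants.

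Psmd8 (chr7:29174187-29180673), a lid subunit, went the other way in ratio in both Rps15 mutants. Its log2 ratios were -0.23, -0.37 and -0.28 in P131S and -0.23, -0.53 and -0.27 in H137Y, against 0.05, -0.01 and 0.12 in WT, with no overlap (-0.37, SE 0.09, adjusted p = 0.0119 in P131S and -0.42, SE 0.09, adjusted p = 0.00483 in H137Y). In P131S its RNA was at 250.1, 246.1 and 260.4 CPM against 205.6, 197.1 and 199.7 (0.33, SE 0.05, adjusted p = 4.04e-05) while its footprints, 213.0, 189.9 and 214.3 against 212.7, 195.7 and 217.4, did not pass the test (-0.02, SE 0.08, adjusted p = 0.918). In H137Y the RNA value was 0.11 (SE 0.05, adjusted p = 0.097; DESeq2 called it higher, adjusted p = 0.0396) and the footprints, 180.4, 159.7 and 172.0, were lower (-0.29, SE 0.08, adjusted p = 0.0268), a call lost without H137Y clones 2 or 6, WT clones 1 or 3 or the filter on low counts. The ratio call in P131S was lost without clone 20, without clone 63 or without any 1 WT clone, and that in H137Y without clone 6, WT clone 1 or WT clone 3.

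Psmd5, a chaperone of the base, had log2 ratios of 0.94, 0.69 and 1.28 in H137Y clones 16, 6 and 2 against 0.42, 0.54 and 0.63 in WT (0.43, SE 0.12, adjusted p = 0.0499). Its call was lost with the clone as a block (adjusted p = 0.051), with limma voom and without H137Y clones 16 or 2 or any 1 WT clone. With that block, which pairs the RNA and footprints of a clone, Psmd4 in P131S (0.40, adjusted p = 0.0454), Psmc6 in H137Y (0.38, adjusted p = 0.0369) and Psmb5 in Rpl10 R98S (0.50, adjusted p = 0.0478) were called. Without the block their adjusted p were 0.0565, 0.1 and 0.0968. Psmc6 ratios in H137Y were 1.58, 1.55 and 1.76 against 1.24, 1.19 and 1.27 in WT. RNA is the denominator of the ratio, so the fall of Psmc6 RNA raises it unless footprints fall as far. Its footprints were below WT in each H137Y clone but did not pass the test. Between P131S and H137Y 0 members were called in ratio (0.682% of genes were, and 7 members had an unadjusted p under 0.05).

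**Figure D3:**
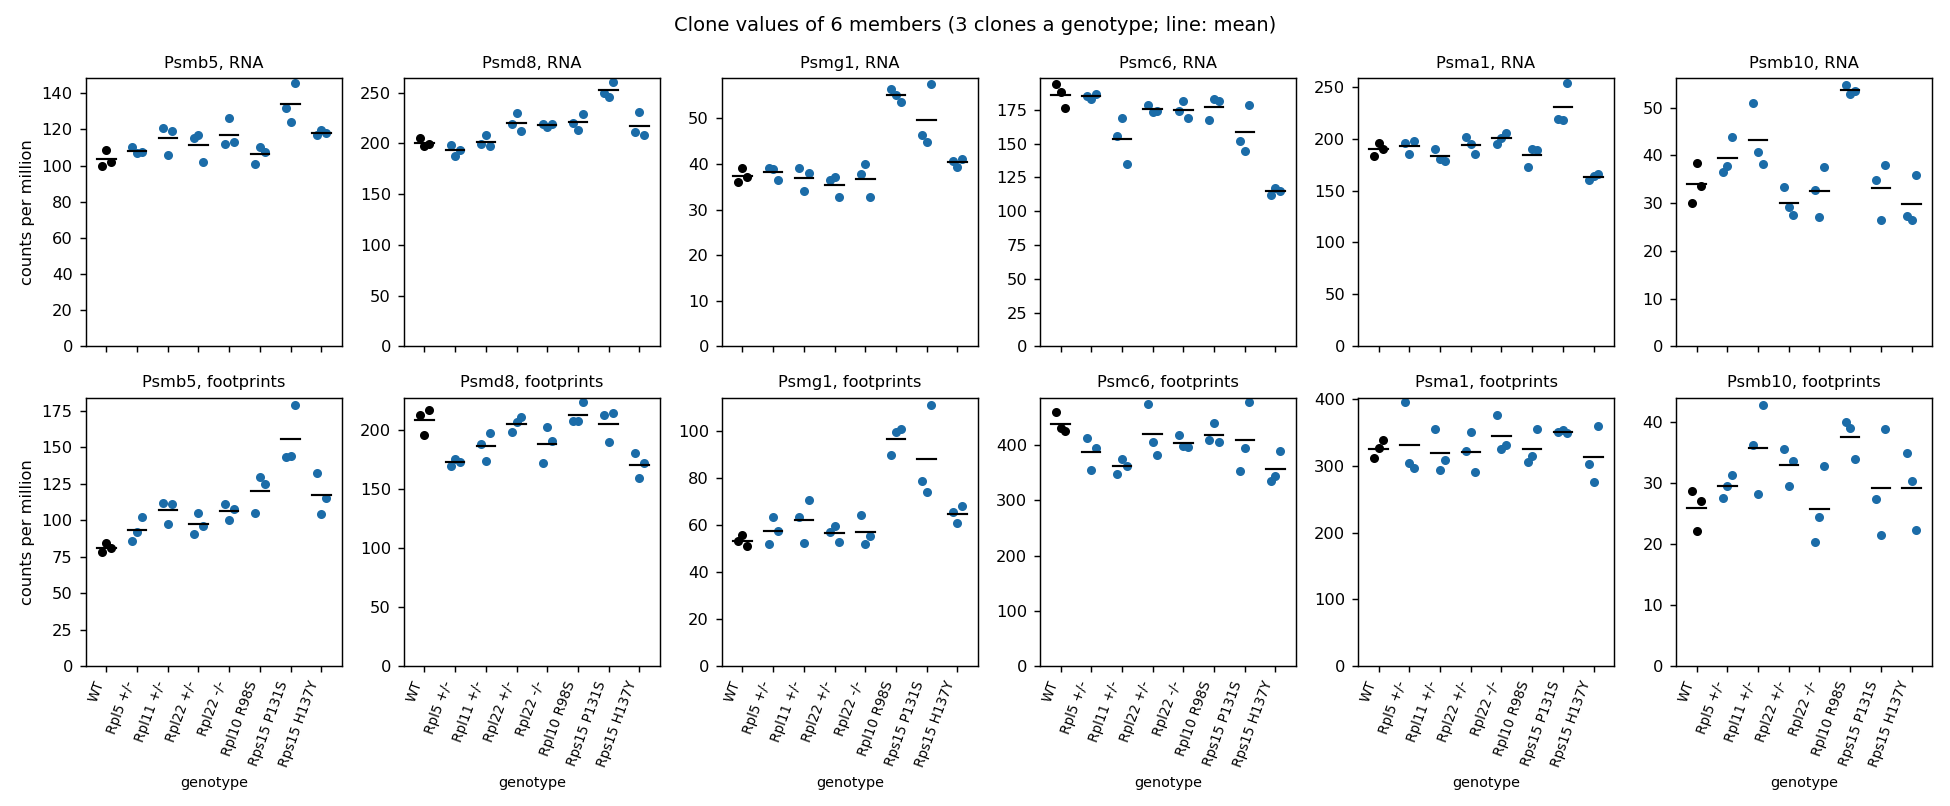
CPM in RNA (top) and footprints (bottom) of Psmb5, Psmd8, Psmg1, Psmc6, Psma1 and Psmb10 in each clone, with a line at the mean of the 3 clones of each genotype and WT in black; axes start at 0. Psmb5 footprints reach 178.6 in P131S while WT stays between 78.3 and 84.3, and Psmc6 RNA is at 111.9 to 117.2 in H137Y.

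Rpl10 R98S clones raised RNA of a smaller set led by the immunoproteasome subunit Psmb10 and the chaperone Psmg1. The 12 members were Psma8, the testis alpha subunit, and Psmb10 in the core (median of 18 core genes 0.04), Psmc1, Psmc2, Psmc4, Psmc5, Psmd3 and Psmd6 in the regulatory particle (median 0.09), and Psme1, Psme2, Psme3 and Psmg1 (median of the others 0.18). Psmb10 (chr8:105935728-105938392) was at 54.7, 52.8 and 53.5 CPM in clones A30, A29 and A34 against 30.1, 38.3 and 33.5 in WT (0.66, SE 0.15, adjusted p = 0.00608). Psmg1 (chr16:95979933-95990960) was at 56.4, 55.2 and 53.5 against 36.0, 39.0 and 37.2 (0.56, SE 0.09, adjusted p = 0.00035). The lid gene Psmd6 was at 124.8, 125.6 and 113.1 against 86.3, 91.4 and 91.6 (0.43, SE 0.08, adjusted p = 0.00208). These 3 genes did not overlap with WT. Psma8 was at 56.0, 52.6 and 53.9 against 38.3, 42.8 and 44.2 (0.37, SE 0.10, adjusted p = 0.0153), Psmd3 at 176.6, 183.5 and 177.0 against 131.7, 142.7 and 140.7 (0.37, SE 0.07, adjusted p = 0.00132), and Psme2 at 110.3, 110.9 and 116.2 against 90.4, 88.5 and 87.3 (0.34, SE 0.07, adjusted p = 0.00242). Psmb10, Psmc2, Psmc4, Psmd3, Psmd6, Psme2 and Psmg1 were called under every alternative run. The call of Psmc5 was lost without any 1 of the 6 clones, that of Psma8 without clone A30 or WT clone 3, that of Psmc1 without A29 or WT clone 1, that of Psme1 without A29, A34, WT clone 2 or WT clone 3, and that of Psme3 without A29, A34 or any 1 WT clone.

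In Rpl10 R98S footprints Psmg1 was at 89.7, 99.9 and 101.0 CPM against 53.1, 56.0 and 51.0 (0.86, SE 0.14, adjusted p = 0.0028), Psme2 at 146.5, 139.6 and 127.0 against 93.1, 77.4 and 85.5 (0.69, SE 0.15, adjusted p = 0.023), and Psmb5 at 105.0, 129.8 and 124.5 against 78.3, 84.3 and 81.0 (0.56, SE 0.11, adjusted p = 0.0139). Every mutant clone was above every WT clone in these. Psmb3, at 544.0, 592.6 and 583.9 against 460.7, 400.8 and 393.0 (0.46, SE 0.09, adjusted p = 0.0133), and Psmc2, at 302.8, 328.6 and 310.8 against 226.2, 223.0 and 234.7 (0.46, SE 0.11, adjusted p = 0.0313), completed the 5 calls. Psmc2, Psme2 and Psmg1 had risen in RNA as well, whereas Psmb5 RNA was at 101.0, 110.1 and 107.7 against 99.9, 108.6 and 102.0 (0.04, SE 0.07, adjusted p = 0.762). Psmb10 footprints, 40.0, 39.0 and 33.9 against 28.7, 22.1 and 27.1, did not pass the test (0.54, SE 0.21, adjusted p = 0.237). Psmg1 was the call that held without any 1 clone. Without A29 the 5 calls became 1, with Psmb3, Psmb5, Psmc2 and Psme2 lost, and the same 4 were lost without WT clone 1 or WT clone 2. Without A30 Psmc2 and Psme2 were lost, without A34 Psmb3, Psmb5 and Psmc2, and without WT clone 3 Psmb5 and Psmc2. In ratio 0 members were called without the block (0.217% of genes were, 7 members had an unadjusted p under 0.05, and DESeq2 called 1, Psmb5).

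The members called in RNA of Rpl11+/- clones were the immunoproteasome genes Psmb8 and Psmb9 and the ATPase gene Psmc6. Of 50 members 2 were higher (5.73% of all genes were) and 1 lower (6.05%), which is below those shares. Psmb9 (chr17:34182030-34187330) was at 72.7, 69.1 and 85 CPM in clones 406, 414 and 22 against 58.6, 46.4 and 52.9 in WT (0.52, SE 0.15, adjusted p = 0.0271). Its neighbor Psmb8 (chr17:34198195-34201454) was at 178.0, 162.8 and 236.2 against 155.2, 152.9 and 139.0 (0.37, SE 0.10, adjusted p = 0.0227), and Psmc6 at 155.5, 168.8 and 135.3 against 194.2, 188.4 and 176.4 (-0.28, SE 0.08, adjusted p = 0.0195). The groups did not overlap, but clone 22 was the most distant in each. Without clone 22 the 3 calls were lost, and they were lost too without WT clone 2, with Psmb9 also lost without clone 406 or WT clone 1, Psmb8 without WT clones 1 or 3 and Psmc6 without WT clone 3. In footprints 0 members were called by edgeR (0.074% of genes were, 8 members had an unadjusted p under 0.05, and DESeq2 called 1, Psmb5), and in ratio 0 (0% of genes, and 0 members with an unadjusted p under 0.05).

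In Rpl5+/- clones 0 members were called in RNA by edgeR (1.04% of genes were, and 6 members had an unadjusted p under 0.05), while DESeq2 called Psmb1 (0.23, adjusted p = 0.0205) and Psmd2 (-0.23, adjusted p = 0.0158). Psmb1 was at 323.4, 317.5 and 328.8 CPM in clones 80, 76 and 68 against 280.4, 269.1 and 274.5, and Psmd2, the ubiquitin-binding scaffold of the base, at 242.1, 242.9 and 222.0 against 275.8, 285.1 and 265.0. Neither gene's groups overlapped. In footprints 0 were called (0.0123% of genes, 2 members with an unadjusted p under 0.05) and in ratio 0 (0% of genes, 2 members). In Rpl22+/- the counts were 0 in RNA (3.9% of genes, 1 member with an unadjusted p under 0.05), 0 in footprints (0.253%, 9 members) and 0 in ratio (0.00604%, 4 members), and DESeq2 called Psmb6 (0.94) and Psmf1 (0.39) in footprints. In the clones labelled Rpl22-/- they were 0 in RNA (5.27%, 5 members), 0 in footprints (0.105%, 9 members) and 0 in ratio (0.0121%, 7 members), with none by DESeq2 or limma voom and none without any 1 clone. The RNA medians of the 50 members were 0.03 in Rpl5+/-, 0.00 in Rpl11+/-, 0.05 in Rpl22+/- and 0.06 in Rpl22-/-.

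Core and regulatory genes were set side by side as the median log2 change of the 18 core genes minus that of the 21 regulatory genes, a description with no test. In RNA it was -0.13 in H137Y, where core genes were lower, 0.11 in Rpl5+/-, where 17 of 18 core but 6 of 21 regulatory genes were above 0, and between -0.06 and 0.09 in the remaining comparisons. H137Y kept a value of -0.20 to -0.09 under every alternative run. In footprints the largest value was 0.18 in Rpl11+/-, and it was -0.10 in H137Y and -0.08 in P131S. In ratio it was -0.15 for P131S against H137Y and within 0.04 of 0 elsewhere. By clone, the plot of medians shows that core genes of all 3 H137Y clones were below the WT mean in RNA.

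**Figure D4:**
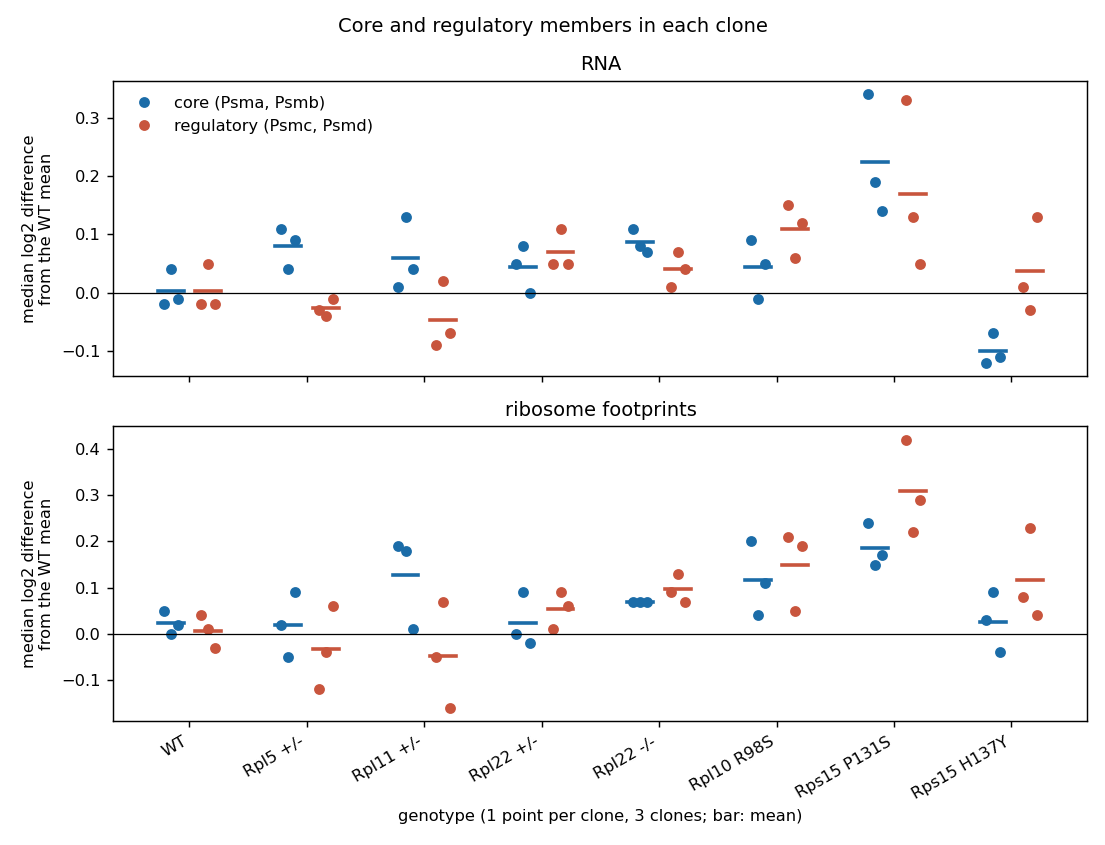
Median log2 difference from the WT mean of the core (blue) and regulatory (red) members in each clone, in RNA (top) and footprints (bottom), with a bar at the mean of the 3 clones of a genotype. In RNA the P131S clones have the highest core points and the H137Y clones the lowest core points.

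Among the catalytic subunits, Psmb5 was called in both Rps15 mutants at both levels and in Rpl10 R98S footprints, Psmb6, the caspase-like subunit, rose in P131S RNA alone, and Psmb7, the trypsin-like subunit, was called in no comparison (RNA of P131S -0.03, SE 0.08; footprints 0.16, SE 0.10). Psmb6 RNA was at 131.2, 130.4 and 160.7 CPM in P131S against 120.7, 127.6 and 115.9 (0.21, SE 0.07, adjusted p = 0.0165), while its footprints ran from 112.6 to 391.8 over the 24 libraries with an SE of 0.30. Of the inducible counterparts, Psmb8 rose in P131S RNA, at 188.1, 186.0 and 193.4 against 155.2, 152.9 and 139.0 (0.34, SE 0.10, adjusted p = 0.0085), Psmb8 and Psmb9 in Rpl11+/- and Psmb10 in Rpl10 R98S, and none of the 3 was called in footprints. The activators Psme1 and Psme2, which form 1 ring together, were called in Rpl10 R98S and H137Y RNA, and Psme2 in P131S RNA. Psme4 and Psmd10 were called in no comparison. Psme2b was at 2.91 to 5.35 CPM in RNA and had a footprint SE of 0.45.

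Of the 5 pseudogenes left out, 4 were near 0, at most 1.07 CPM for any of them, and the copy of Psma5 was not. Psma5-ps was at 0.0503 to 1.06 CPM in RNA and at 3.05 to 278.2 in footprints, and the plot of Psma5 with its copy shows that their shares moved between clones. Psma5 footprints in P131S had risen from 225.6, 276.6 and 257.7 CPM in WT to 344.9, 365.6 and 381.0 (0.52, SE 0.13, adjusted p = 0.00923). The sum of gene and copy was 409 ± 37.5 CPM in P131S (SD, n = 3) and 457.3 ± 70.2 in WT. With the copy added, an alternative chosen after seeing the data, the log2 change of Psma5 turned to -0.16 in P131S, and its difference from H137Y went from 0.62 to 0.04 and lost its call. How reads that fit both were assigned is not given in the sources used here, so the footprint value of Psma5 is uncertain, while its RNA value is not touched by a copy at these levels.

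**Figure D5:**
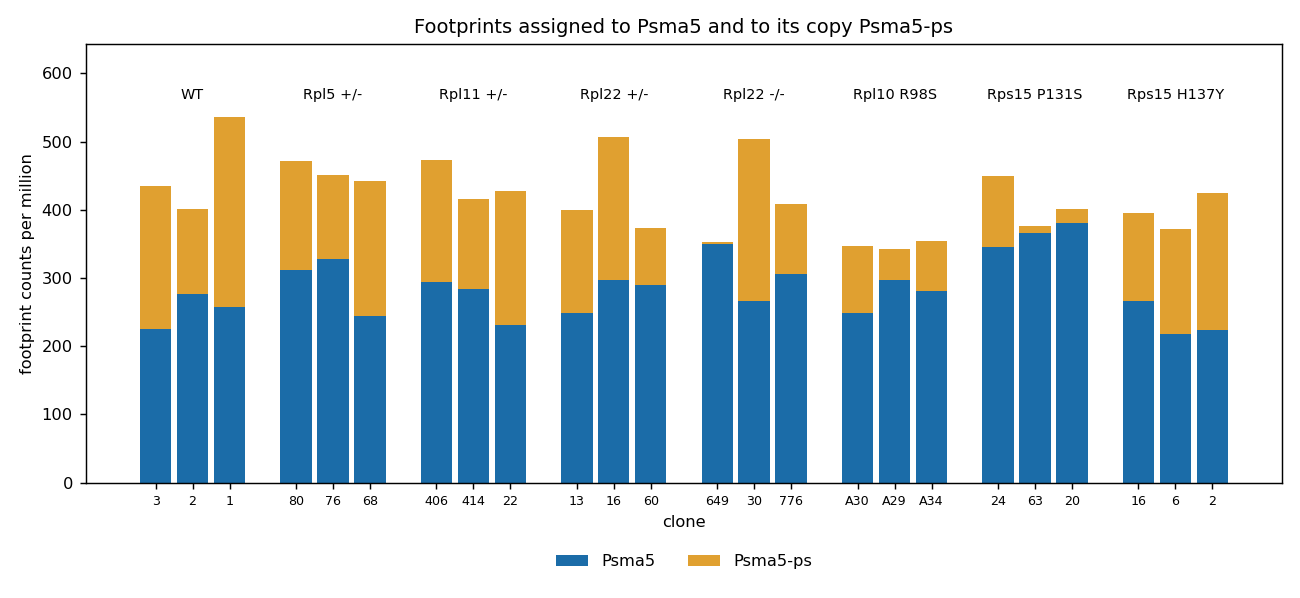
Footprint CPM assigned to Psma5 (blue) and to its pseudogene copy Psma5-ps (orange), stacked, in each of the 24 clones in genotype order; the axis starts at 0. The blue part reaches 381 in P131S, while the mean height of the stacks is 409 there and 457.3 in WT.

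Genes that work with the proteasome but lie outside the name pattern were described from lists. The shares of all genes called, against which the counts of each list are to be read, were 23.7% higher and 23.4% lower in P131S RNA and 21% and 20% in H137Y RNA. Of 19 tested partners, 7 rose and 2 fell in P131S RNA, and in H137Y 3 rose and 3 fell. The ubiquitin receptor Adrm1 rose in both (0.64, SE 0.08, adjusted p = 5.11e-06 in P131S and 0.37, SE 0.08, adjusted p = 0.00144 in H137Y), as did the shuttle factor Ubqln4 (0.74 and 0.59). Pomp, which matures the core, rose in P131S RNA (0.32, SE 0.07, adjusted p = 0.00061), with Sem1 (0.27), Rad23b (0.35), Ubqln1 (0.28) and Txnl1 (0.21). Akirin2, which brings proteasomes into the nucleus, fell in P131S (-0.43), H137Y (-0.69) and Rpl10 R98S (-0.25), Fbxo7 fell in P131S (-0.25), and the proteasome-bound deubiquitinase Usp14 (-0.57) fell in H137Y, where Ecpas rose (0.24). In footprints 2 rose in P131S (Uchl5 0.71, Ubqln1 0.49) and 2 in H137Y (Zfand5 0.46, Pomp 0.32), and in ratio Akirin2 was higher in H137Y (0.61) and Pomp lower in P131S than in H137Y (-0.39). In Rpl11+/- Ubqln4 (0.39) and Rad23b (0.29) rose, and Ubqln2 rose in Rpl22+/- (0.23).

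Factors known to induce proteasome genes went both ways. Of 14, 5 rose and 6 fell in P131S RNA and 4 rose and 6 fell in H137Y. The shares of all genes were 23.7% higher and 23.4% lower in P131S and 21% and 20% in H137Y. Nfe2l1, the main inducer, fell in RNA of P131S (-0.27, SE 0.11, adjusted p = 0.0393), H137Y (-0.32, SE 0.11, adjusted p = 0.0177) and Rpl10 R98S (-0.34, SE 0.11, adjusted p = 0.038), and in H137Y footprints (-0.72, SE 0.18, adjusted p = 0.0111). Nfya, a subunit of the factor that binds CCAAT, fell in RNA of P131S (-0.98) and H137Y (-1.11) but had a higher ratio (1.52 and 1.28), of which RNA is the denominator. Mafk, a small Maf partner of Nfe2l1, rose in RNA of 6 genotypes (0.86 to 1.21), while its ratio was lower in P131S (-1.41). Comparisons of several genotypes share the same WT clones, so the 6 rises are not separate results. The heat shock factor Hsf1 rose in RNA of P131S (0.39) and H137Y (0.22) and fell in footprints (-0.80 and -0.76). In Rpl10 R98S 1 of the 14 rose and 3 fell, beside 874 and 773 of all 12814 genes tested in RNA. In Rpl11+/- 1 rose and 2 fell, beside 734 and 775. In Rpl22+/- 2 rose and 2 fell, beside 139 and 361, and in Rpl22-/- 2 and 1, beside 188 and 487.

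Among ubiquitin and activating enzyme genes, Rps27a, which encodes ubiquitin fused to a ribosomal protein, rose in RNA of Rpl5+/- (0.35), Rpl11+/- (0.35), P131S (0.28) and H137Y (0.23). In P131S footprints Ubb (0.91), Uba6 (0.44) and Uba1 (0.37) rose. Of 13 interferon and antigen presentation genes, 6 rose in Rpl11+/- RNA (5.73% of all genes did), the genotype in which Psmb8 and Psmb9 rose: Nlrc5 (1.3), Tap1 (0.72), Tap2 (0.70), B2m (0.67), H2-K1 (0.49) and Erap1 (0.29). In H137Y 7 rose in RNA (21% of all genes) and 5 in footprints (5.22%), and in P131S 3 rose (23.7%) and 1 fell in RNA and 4 rose (8.42%) and 1 fell in footprints, while B2m (0.48) and Nlrc5 (0.81) rose in Rpl10 R98S RNA. Of 14 p97 and endoplasmic reticulum degradation genes, 4 rose and 2 fell in P131S RNA and 4 rose and 3 fell in H137Y (shares of all genes 23.7% and 23.4%, and 21% and 20%). In footprints Derl1 fell in both (-0.80 and -0.59) and Derl2 in H137Y (-0.87), while Ubxn4 (0.71) and Ubxn1 (0.33) rose in P131S and Syvn1 (0.52) in H137Y. Of 8 tested genes on a list of autophagy receptors and genes close to them, 1 rose (Gabarap) and 2 fell (Nbr1 and Optn) in P131S RNA. In H137Y RNA 2 rose (Gabarap and Gabarapl1) and 1 fell (Nbr1). These counts are beside the same shares of all genes.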

How the data were processed

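RNA and ribosome footprints of 28 to 30 nt were measured in the 3 clones of each of 8 genotypes, 24 libraries per assay, from divided lysates, per the labels' protocols. The values are estimated counts per gene as deposited by the authors, and the submitters' processing notes name STAR 2.6.1d, Salmon 1.4.0, DESeq2 1.30 and GRCm38, with no role or order. The annotation release and the treatment of reads that fit several genes are not given in the sources used here.

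Counts were rounded to whole numbers, scaled by TMM (factors 0.913 to 1.06 in RNA and 0.877 to 1.08 in footprints), filtered with filterByExpr (minimum count 10, minimum total 15) and tested two-sided with edgeR 4.0.16 (R 4.3.3) by quasi-likelihood over the 24 libraries of an assay. The footprint to RNA ratio was tested as an interaction over 48 libraries in 16 groups. P-values were adjusted by Benjamini-Hochberg over all genes tested, with a threshold of 0.05. For 1 gene alone, the smallest p of an exact permutation test at this group size is 0.1. CPM are TMM scaled, and the ratio of a clone is the log2 of footprint over RNA CPM. Tests were checked on simulated data.

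The members and lists were chosen with earlier results of these data known. All members were accounted for, every member called was named, and the rule gave clone values for at most 6 members per comparison and level, those with the largest log2 change. Clone values beyond it belong to members always described (such as Psmb6 and Psmb8) or were added after values were seen (Psmc6, Psmd8, Psma1, Psma6 and Psmb2, among others). Alternatives were DESeq2 size factors, no filter, DESeq2 1.42.0, limma 3.58.1 voom, leaving out each clone, the clone as a block, constitutive subunits only and, chosen after seeing the data, copies added to their parent gene. RNA and footprints of 1 clone came from 1 lysate. Their deviations from the genotype mean correlated at 0.15 to 0.55 in 24 of 24 clones (12074 genes, pseudocount 0.5 CPM). Between different clones of a genotype the values were -0.45 to -0.02. Deviations from a genotype mean cancel out over its clones, so positive values within clones push those between clones to the negative side. The values between clones are therefore no separate check that the RNA and footprints of a clone belong together. The counts cover 99.97% of each assay in genes tested, and intervals from counts would cover counting error only. Some genes of the pathway and marker lists are not reported here.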

Additional observations from a re-analysis of the deposited data

Results flagged for a closer look

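RNA of 4 core genes moved away from WT in opposite directions in the 2 Rps15 mutants. The difference between the mutants passed edgeR's quasi-likelihood test with Benjamini-Hochberg adjustment. Because the genes were picked for calls in opposite directions, that pass was nearly fixed in advance and adds no support. Psma1 was higher in P131S than in H137Y by 0.49 on the log2 scale (adjusted p = 1.13e-05), with changes from WT of 0.28 and -0.22. Psma5 differed by 0.45 (adjusted p = 3.84e-05), with 0.28 and -0.17. Psma6 differed by 0.38 (adjusted p = 0.000133), with 0.22 and -0.16. Psmb2 differed by 0.33 (adjusted p = 0.000528), with 0.16 and -0.17. In each gene all 3 P131S clones were above all 3 H137Y clones, which the same choice of genes favors. Both changes from WT use the same WT clones. The share of all genes called in opposite directions in the mutants is not given here.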

How the results depend on the processing

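By count of members called, DESeq2 gave 2 in Rpl5+/- RNA (0 by edgeR), 1 in Rpl11+/- footprints (0), 2 in Rpl22+/- footprints (0), 11 between P131S and H137Y in footprints (6), and in ratio 1 in Rpl10 R98S (0) and 4 in H137Y (2). The shares of all genes called by DESeq2 are not given here, so these counts have no background. Without the filter on low counts H137Y had 13 in RNA (21) and 5 in footprints (12), Rpl10 R98S 3 in footprints (5), and P131S and H137Y 0 each in ratio (2 each), since more genes are then tested. Limma voom gave 1 in H137Y ratio. With the clone as a replicate block Rpl10 R98S had 1 in ratio. With copies added Psma5 footprints in P131S went from 0.52 to -0.16.

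Leaving out 1 clone gave 0 (without clone 22) to 5 calls in Rpl11+/- RNA, 12 to 20 in H137Y RNA, 14 to 30 between P131S and H137Y in RNA, 1 to 3 in Rpl10 R98S footprints, 10 to 17 in P131S footprints, 4 to 10 in H137Y footprints, 3 to 8 between them in footprints, 1 to 2 in P131S ratio and 0 to 2 in H137Y ratio. The cause of these changes was not tested.

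The core minus regulatory medians with constitutive subunits only were 0.02 in Rpl11+/- RNA, -0.10 in Rpl10 R98S RNA, -0.05 in Rpl10 R98S footprints, -0.15 in H137Y footprints, -0.03 in Rpl5+/- ratio and 0.06 in Rpl10 R98S ratio. Leaving out 1 clone, they ran in RNA from 0.04 to 0.12 in Rpl11+/-, -0.07 to -0.04 in Rpl10 R98S, -0.01 to 0.06 in P131S and 0.03 to 0.17 between P131S and H137Y. In footprints they ran from 0.14 to 0.25 in Rpl11+/-, -0.04 to 0.04 in Rpl22+/-, -0.07 to 0.05 in Rpl22-/-, -0.07 to 0.02 in Rpl10 R98S, -0.12 to 0.02 in P131S, -0.12 to -0.05 in H137Y and -0.09 to 0.07 between them. In ratio Rpl5+/- ran from -0.13 to -0.01, Rpl22+/- from -0.02 to 0.04 and Rpl11+/- from 0.01 to 0.06, and the values were 0.00 to 0.03 in Rpl10 R98S, -0.09 to 0.00 in P131S and -0.15 to -0.06 between the Rps15 mutants.

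The median SE of the members was 0.07 in RNA, 0.12 in footprints and 0.15 in ratio, while library totals ranged higher in footprints than in RNA. The cause was not tested.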
